A study of Homo sapiens with 18 samples.

Results

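The genes described here are the hexokinases HKDC1, HK1 and HK2 and a set of enzymes that carry glucose 6-phosphate on to lactate, namely GPI, PFKL, PFKP, ALDOA, PGK1, ENO1 and LDHA. They were chosen by name, with earlier fold changes of these data in view, and HKDC1 was included because it was near 0 in the control libraries. Of the 10 named genes, 9 had a row that could be matched to a gene name among the 20802 genes listed, and these 9 also passed the minimum of more than 100 counts over all libraries. ALDOA was not analysed here. Because the choice used the comparison of on-target with nontargeting siRNA, the members' values in that comparison are given as a description without p-values.

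RKO cells, an established line from a human colorectal carcinoma, received 30 nM siRNA and were harvested after 72 h. The 18 libraries form 6 groups of 3. Control cells received one of the nontargeting siRNAs siCtrl#1 and siCtrl#2, and depleted cells received siTsg101#1 or siTsg101#2 against TSG101, or siVps28#1 or siVps28#2 against VPS28. Each batch named in the labels holds 1 library of every siRNA. TSG101 and VPS28 are subunits of ESCRT-I, a complex that sorts ubiquitinated membrane proteins into endosomes bound for the lysosome. All groups are of one transfected line, and each subunit was targeted by 2 siRNAs. The study describes its replicates as independent experiments, and the p-values measure the spread between these libraries.

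Hexokinases phosphorylate glucose to glucose 6-phosphate, the step that traps the sugar in the cell. HK1 is expressed in most tissues and HK2 is the inducible form that many tumours use, and both can dock on the outer mitochondrial membrane. HKDC1 is a later described relative encoded beside HK1, and it has been reported as a target of TFEB, a factor that drives lysosomal genes. The enzymes after it rearrange, split and oxidise the sugar, and LDHA turns the resulting pyruvate into lactate. Many of these genes are textbook targets of HIF1A and MYC, which, like TFEB and TFE3, bind short DNA motifs that contain ACGTG or CACGTG.

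Between 2561790 and 7466916 reads were counted on genes per library, with a median of 5022216. Levels are given as normalized counts per 1000000 reads (CPM), and since the panel reads each gene through its own amplicon, levels were compared between libraries and not between genes. TSG101 lay between 2.49 and 4.99 CPM in the 6 siTsg101 libraries and between 74.5 and 159 CPM in the 6 nontargeting ones. VPS28 lay between 3.48 and 7.78 CPM in the 6 siVps28 libraries and between 65.1 and 112 CPM in the nontargeting ones. Every library thus matched the target in its label. These levels cannot tell apart the siRNAs against one target, the nontargeting siRNAs or the replicates. Of 11 colon and epithelial markers, EPCAM, KRT8, KRT18 and CDX2 passed 100 counts, whereas CDH1 and LGR5 had 0 reads and KRT19, KRT20, CDX1, VIL1 and MUC2 at most 2 in any library. Of 8 markers of other cell types, CD68, which also encodes a lysosomal protein, was the only one above 11 counts in any library, and PTPRC, CD3E, COL1A2 and DCN had 0. Some transcripts were nearly lost from single libraries: siVps28#2 replicate 3 had 32 genes and siCtrl#2 replicate 3 had 5 genes more than 8-fold below the lowest of the other 17 libraries, and GPI is one of those 5. There were 2 such genes in siTsg101#1 replicate 3, 1 each in siCtrl#2 replicate 1 and siVps28#1 replicate 1, and 0 in the other 13 libraries.

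HKDC1 (ENSG00000156510, chromosome 10, 70980088 to 71027308 on the plus strand of GRCh37) lies directly before HK1, with 2432 bases between the end of the first gene and the start of the second. Its transcript shared no stretch of 50 bases with another gene, and 143 exon bases overlapped a gene on the opposite strand. The sequence before its start is shown because HKDC1 was the member with the large difference. It comprises the 250 bases upstream of the RefSeq start in GRCh38.p14, at chr10:69220082-69220331 on the plus strand.

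HKDC1: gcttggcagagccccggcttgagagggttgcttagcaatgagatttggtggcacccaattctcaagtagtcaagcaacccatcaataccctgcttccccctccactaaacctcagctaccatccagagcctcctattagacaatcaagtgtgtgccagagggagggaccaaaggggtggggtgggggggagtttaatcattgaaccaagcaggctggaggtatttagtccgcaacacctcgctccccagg

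This window held no CACGTG on either strand, where 6.34% of all 35116 RefSeq promoter windows of the same length did. It also lacked the shorter core ACGTG, which lies within the longer motif and was found in 18.5% of the windows. This says only that these letters are not in the 250 bases before this start.

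HKDC1 was almost unread in control cells and was read in every depleted library. The siCtrl#1 libraries held 0, 0 and 2 HKDC1 reads in replicates 1, 2 and 3, and the siCtrl#2 libraries held 0, 0 and 0. With siTsg101#1 there were 8, 2 and 45 reads, and with siTsg101#2 there were 28, 13 and 21. With siVps28#1 there were 7, 13 and 26 reads, and with siVps28#2 there were 13, 15 and 40. After scaling for depth, all 12 on-target libraries lay above all 6 nontargeting libraries, the lowest on-target library at 0.525 CPM and the highest nontargeting one at 0.342 CPM. Those libraries, siTsg101#1 replicate 2 and siCtrl#1 replicate 3, held 2 reads each, and a limit of 3 counts in the nontargeting libraries reaches 0.844 reads per 1000000, so that the separation of that on-target library was not detectable at this depth. All 12 lay above all 6 for 1.96% of the 10213 genes tested, and nothing is read from this for a gene chosen on the same values.

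**Figure D1:**
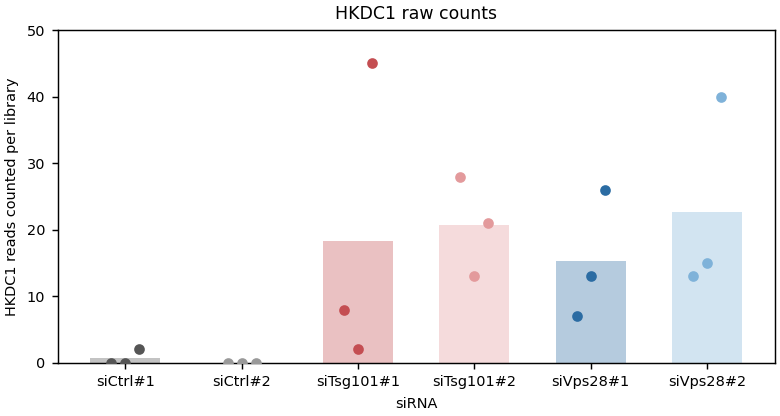
HKDC1 reads counted per library (vertical axis) for each siRNA (horizontal axis), with 1 point per library and a bar at the mean of the 3 replicates. The nontargeting libraries held 0 to 2 reads and the on-target libraries 2 to 45.

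In total, 2 HKDC1 reads were counted among 28146877 reads of the 6 nontargeting libraries and 231 among 64355653 reads of the 12 on-target libraries. These sums correspond to 0.0711 reads per 1000000 (exact 95% Poisson interval 0.00861 to 0.257) and 3.59 reads per 1000000 (3.14 to 4.08), a ratio of 50.5 (exact 95% interval 13.8 to 420). The reads were amplified without molecular identifiers, so that these intervals cover counting error only. The 3 siCtrl#2 libraries with 0 reads allow up to 0.22 reads per 1000000 at a limit of 3 counts over the group.

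Pooled over replicates, the HKDC1 count lay between 3.25 and 3.98 reads per 1000000 with the 4 on-target siRNAs. The siTsg101#1 libraries together gave 3.98, the siTsg101#2 libraries 3.25, the siVps28#1 libraries 3.61 and the siVps28#2 libraries 3.63. The ratio to siCtrl#1, which rests on 2 control reads, was 28.9 (7.62 to 244) for siTsg101#1 and 23.6 (6.26 to 199) for siTsg101#2. For siVps28#1 it was 26.2 (6.84 to 223), and for siVps28#2 it was 26.3 (7.01 to 222). With siCtrl#2 set to a limit of 3 counts, the ratio to siCtrl#2 came to 18.1, 14.8, 16.4 and 16.5, in the same order. These ratios leave out the error of the on-target counts and the spread between libraries, and are no lower bounds. The exact 95% Poisson interval of siCtrl#2 reached 0.27 reads per 1000000. Within an siRNA the replicates spread widely. The siTsg101#1 libraries ranged from 0.525 to 6.28 CPM, siTsg101#2 from 2.02 to 4.37, siVps28#1 from 2.03 to 5.95 and siVps28#2 from 2.11 to 6.94. Replicate 3, which is also a batch, was the highest library with siTsg101#1, siVps28#1 and siVps28#2, and replicate 1 was the highest with siTsg101#2. The cause of this spread was not tested.

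In the fit over all genes the log2 fold change of HKDC1 was 4.42 (SE 0.91) for the 4 on-target siRNAs averaged, relative to siCtrl#1, which placed it at rank 9 of 10213 genes. HKDC1 was chosen on this comparison and passed the minimum of counts only through its on-target reads, so nothing is read from the rank. With so few control reads the fitted value depends on the prior count and is no bound. Both control reads came from siCtrl#1 replicate 3, and without that library the fitted value was 7.16.

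The comparison between the depleted cells was not used in the choice and could be tested. HKDC1 differed by -0.12 on the log2 scale (SE 0.40, 95% interval -0.95 to 0.71, adjusted p = 0.891) between Tsg101 and Vps28 depletion. It differed by 0.18 (-0.99 to 1.34, adjusted p = 0.895) between siTsg101#1 and siTsg101#2 and by -0.01 (-1.20 to 1.17, adjusted p = 0.998) between siVps28#1 and siVps28#2. No difference was detectable at this depth, and intervals this wide do not show that the siRNAs act alike.

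The genes whose pattern over the 18 libraries was most like that of HKDC1 were MMP10, ITGAX, IRAK2, NFKBIA and HMGCS1, with root-mean-square differences of 0.614, 0.722, 0.77, 0.776 and 0.778 in log2 CPM centred on each gene's mean. MMP10, a secreted metalloproteinase, resembled HKDC1 also in its counts, with 0 to 2 reads in nontargeting and 13 to 65 in on-target libraries. NFKBIA encodes an inhibitor of NF-kB, IRAK2 a kinase of interleukin-1 and Toll-like receptor signaling, ITGAX an integrin subunit and HMGCS1 an enzyme of cholesterol synthesis. The other members were farther from HKDC1, at 1.42 (HK2) to 1.68 (PFKL). This ranking covers the nontargeting libraries, on whose values HKDC1 was chosen, and so favours genes with a large difference from them. The 5 genes had log2 fold changes of 2.56 to 5.10 for the on-target mean against siCtrl#1, and nothing is read from the ranking.

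HK1 (ENSG00000156515, chromosome 10, 71029740 to 71161640, plus strand) showed a small difference. In siCtrl#1 the replicates had 112, 88.5 and 116 CPM, and in siCtrl#2 they had 122, 123 and 119. With siTsg101#1 there were 131, 131 and 155 CPM, and with siTsg101#2 there were 143, 123 and 99.9. With siVps28#1 there were 152, 138 and 147 CPM, and with siVps28#2 there were 157, 174 and 135. Nontargeting and on-target libraries overlapped, the overlap coming from siTsg101#2. The log2 fold change against siCtrl#1 was 0.41 (SE 0.13) for the on-target mean, below the 1.5-fold threshold, and 0.21 when siCtrl#2 was the reference.

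HK2 (chromosome 2, 75061254 to 75120486, plus strand) varied more between libraries. In siCtrl#1 the replicates had 136, 71.0 and 126 CPM, and in siCtrl#2 they had 139, 121 and 161. With siTsg101#1 there were 162, 127 and 204 CPM, and with siTsg101#2 there were 113, 79.9 and 149. With siVps28#1 there were 181, 102 and 181 CPM, and with siVps28#2 there were 201, 143 and 216. Replicate 2, which is also a batch, was the lowest library in each of the 6 groups, and nontargeting and on-target libraries overlapped. The log2 fold change against siCtrl#1 was 0.57 and 0.03 for siTsg101#1 and siTsg101#2, and 0.47 and 0.75 for siVps28#1 and siVps28#2. Without siCtrl#1 replicate 2 the values of siTsg101#1 and siVps28#2 were 0.33 and 0.51. In the main fit neither passed the thresholds of 1.5-fold and an adjusted p-value under 0.05, and both did with replicate as a block. HK2 with siVps28#2 also passed with DESeq2, without a filter on low counts and with at least 10 counts in every library. It passed as well when some of the single libraries were left out. HK2 was chosen with this comparison in view, so nothing is read from this. In the transcript of HK2, 23.5% of bases lay in 50-base stretches that also occur in 1 other gene, the pseudogene HK2P1. Amplicon positions are not given, so it is not known whether the HK2 counts include reads from that gene.

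Stretches before the starts of HK2 and LDHA are shown because they hold CACGTG, which the HKDC1 window lacks. Capitals mark the motif, and all 4 stretches are on the plus strand of GRCh38.p14, at chr2:74834959-74834998, chr2:74835004-74835043, chr11:18394361-18394400 and chr11:18394459-18394498 in the order printed.
HK2: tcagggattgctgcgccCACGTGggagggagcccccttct
HK2: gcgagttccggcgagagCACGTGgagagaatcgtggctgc
LDHA: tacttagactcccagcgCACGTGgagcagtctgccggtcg
LDHA: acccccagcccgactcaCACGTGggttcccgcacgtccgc
Of the 23 windows of the 10 named genes, 3 held CACGTG (before HK2, ALDOA and LDHA), beside 6.34% of all RefSeq windows. The shorter core was in 9 of the 23 windows, before 6 genes, beside 18.5% of all windows. Some genes have several windows, and nothing is read from these counts.

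GPI, which interconverts glucose 6-phosphate and fructose 6-phosphate, was even across the libraries apart from a single one (chromosome 19, 34850385 to 34893318). The nontargeting libraries had 1293, 1183 and 1179.8 CPM (siCtrl#1) and 1246, 1108 and 50.7 CPM (siCtrl#2). The low value belonged to siCtrl#2 replicate 3, with 263 GPI reads where the other 17 libraries had 853 to 1361 CPM. The 12 on-target libraries lay between 853 and 1361 CPM with a median of 1034, and overlapped the other 5 nontargeting libraries. The log2 fold change of the on-target mean against siCtrl#1 was -0.20 (SE 0.39). Between the nontargeting siRNAs it was -0.61 (adjusted p = 0.633) with that library and -0.05 (adjusted p = 0.958) without it. In GPI, 23.0% of transcript bases lay in 50-base stretches shared with other genes, and 542 exon bases overlapped another gene on the same strand.

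PFKL and PFKP encode the liver and platelet forms of phosphofructokinase, which makes fructose 1,6-bisphosphate. For PFKL (chromosome 21, 45719934 to 45747259), the replicates had 123, 139 and 111 CPM in siCtrl#1 and 122, 87.1 and 60.5 in siCtrl#2. With siTsg101#1 there were 84.7, 99.9 and 86.3 CPM, and with siTsg101#2 there were 101, 86.4 and 79.1. With siVps28#1 there were 96.7, 95.3 and 94.1 CPM, and with siVps28#2 there were 84.6, 103 and 64.0. All 12 on-target libraries lay below the 3 siCtrl#1 libraries, but siCtrl#2 overlapped both. The log2 fold change of the on-target mean was -0.47 (SE 0.15) against siCtrl#1 and 0.00 against siCtrl#2, and siCtrl#2 itself differed from siCtrl#1 by -0.47 (SE 0.20, adjusted p = 0.271). PFKP (chromosome 10, 3108525 to 3179910) ranged from 158 to 293 CPM in nontargeting and from 170 to 309 CPM in on-target libraries, with a log2 fold change of 0.05 (SE 0.18).

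PGK1, which makes the first ATP of glycolysis from 1,3-bisphosphoglycerate, ranged from 633 to 821 CPM in nontargeting and from 566 to 938 CPM in on-target libraries (chromosome X, 77166236 to 77384792). ENO1, which makes phosphoenolpyruvate, ranged from 3351 to 4559 and from 3056 to 4641 CPM (chromosome 1, 8921059 to 8939249, minus strand). In both genes the ranges overlapped almost entirely. The log2 fold change of the on-target mean against siCtrl#1 was 0.00 (SE 0.12) for PGK1 and -0.01 (SE 0.12) for ENO1. Stretches of 50 bases shared with other genes covered 11.9% of the transcript bases of PGK1 and 19.9% of those of ENO1. The genes sharing most were PGK1P2, PGK1P1 and LINC00963 for PGK1, and EDARADD, ENO1P1 and ENO2 for ENO1.

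LDHA (chromosome 11, 18416107 to 18429972) ends 59911 bases before TSG101 on the same chromosome, and was low in the siCtrl#2 libraries. In siCtrl#1 the replicates had 686, 495 and 502 CPM, and in siCtrl#2 they had 320.0, 344 and 321. With siTsg101#1 there were 719, 389.6 and 547 CPM, and with siTsg101#2 there were 417, 486 and 423. With siVps28#1 there were 708, 418 and 476 CPM, and with siVps28#2 there were 647, 430.3 and 473. Every on-target library lay above the 3 siCtrl#2 libraries and they overlapped siCtrl#1. The on-target mean differed by -0.14 (SE 0.17) from siCtrl#1 and by 0.63 from siCtrl#2 on the log2 scale, so that its direction depends on the control. Between siCtrl#2 and siCtrl#1 the log2 difference was -0.77 (SE 0.22, 95% interval -1.22 to -0.33) with an adjusted p of 0.0613 in edgeR's quasi-likelihood test. It was 0.0175 with the replicate block and 0.0192 in DESeq2, both past the threshold. In LDHA, 31.7% of transcript bases lay in 50-base stretches shared with other genes, LDHAP4 and LDHAP5 among them.

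**Figure D2:**
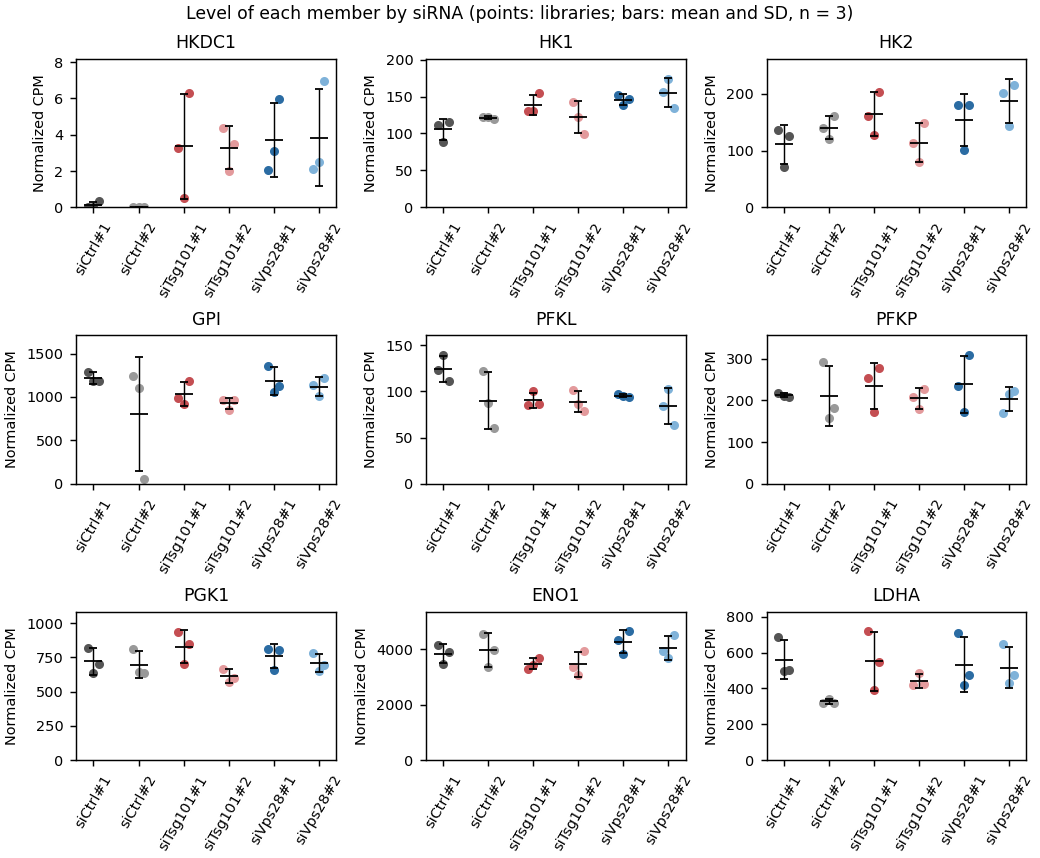
Normalized CPM (vertical axes, each from 0) of the 9 members by siRNA (horizontal axes), with 1 point per library and the mean and SD of 3 replicates. HKDC1 is near 0 in both nontargeting groups, 1 siCtrl#2 library is low for GPI (50.7 CPM), and the siCtrl#2 libraries are low for LDHA (320.0 to 344 CPM).

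Set side by side, 1 of the 9 members, HKDC1, passed both thresholds (1.5-fold and an adjusted p-value under 0.05) for the on-target mean against siCtrl#1, where 15.1% of all genes did. By the adjusted p-value alone 3 of the 9 passed, where 23.8% of all genes did, and nothing is read from these counts. The 8 others had log2 fold changes between -0.47 and 0.46 with a median of -0.005, beside -0.003 over all genes tested. Their SD over the 18 libraries was 0.18 to 0.44 in log2 CPM, and 1.06 for GPI, beside 1.59 for HKDC1.

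**Figure D3:**
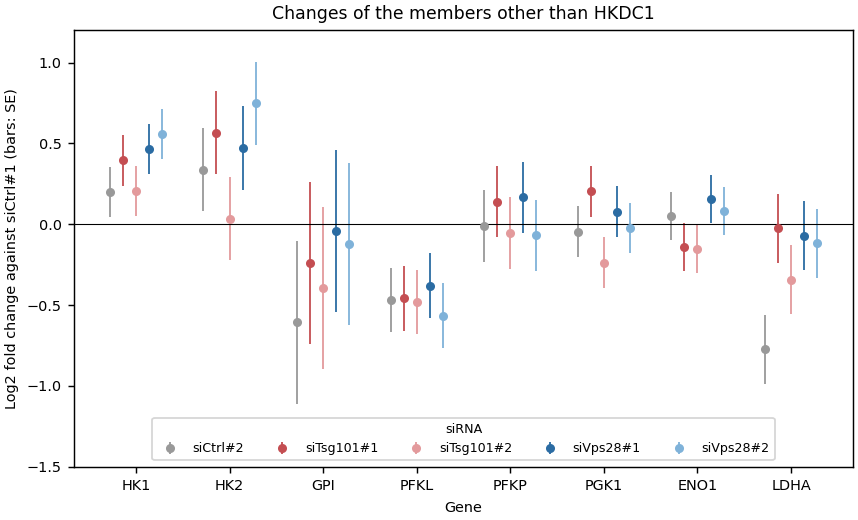
Log2 fold change against siCtrl#1 (vertical axis, with SE) of the 8 members other than HKDC1 (horizontal axis), for siCtrl#2 and each of the 4 on-target siRNAs. The on-target values lie between -0.56 and 0.75, and siCtrl#2 reaches -0.77 for LDHA.

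Whether the members differed between depletion of the 2 ESCRT-I subunits was tested in the same fit. None of the 9 members passed both thresholds in edgeR or in DESeq2, where 6.23% of all genes passed in edgeR, and 1 of the 9 had an unadjusted p-value under 0.05. That gene was ENO1, with 3300.3, 3413 and 3689.5 CPM with siTsg101#1 and 3362, 3056 and 3930.4 with siTsg101#2. It had 4345, 3809.9 and 4641 CPM with siVps28#1 and 3932, 3680.4 and 4526 with siVps28#2, and the groups overlapped. The log2 difference of ENO1 was -0.26 (SE 0.11, 95% interval -0.48 to -0.05, adjusted p = 0.108). HK2 differed by -0.31 (-0.68 to 0.06, adjusted p = 0.296) and HK1 by -0.21 (-0.43 to 0.02, adjusted p = 0.237). The other intervals reached from -0.97 to 0.50 for GPI and from -0.40 to 0.32 for LDHA, PGK1, PFKL and PFKP. The fit takes its spread from all 18 libraries, so the GPI interval includes the low siCtrl#2 replicate 3 (50.7 CPM), which is not compared here. The compared libraries had 853 to 1185 CPM of GPI with the siTsg101 siRNAs and 1008 to 1361 with the siVps28 siRNAs.

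The siRNAs against one subunit were compared in the same way. Between siTsg101#1 and siTsg101#2, 0 of 9 members passed in edgeR or DESeq2, where 6.98% of all genes passed in edgeR, and 2 had an unadjusted p-value under 0.05, namely PGK1 (0.44, SE 0.16, adjusted p = 0.0882) and HK2 (0.53, SE 0.26, adjusted p = 0.223). PGK1 had 938, 703 and 844 CPM with siTsg101#1 and 667, 566 and 599 with siTsg101#2. All 9 members had a difference above 0 in this comparison, with a median of 0.19 beside -0.02 over all genes. The differences were as small as 0.01 (ENO1) and 0.02 (PFKL). The members were read in the same libraries and are not independent of each other, so nothing is read from this count. Between siVps28#1 and siVps28#2, 0 of 9 passed in edgeR or DESeq2, where 0.48% of all genes passed, with 0 at an unadjusted p-value under 0.05. Between the nontargeting siRNAs, 0 of 9 passed in edgeR and 1 (LDHA) in DESeq2, where 2.09% of all genes passed in edgeR, and LDHA and PFKL had an unadjusted p-value under 0.05.

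**Figure D4:**
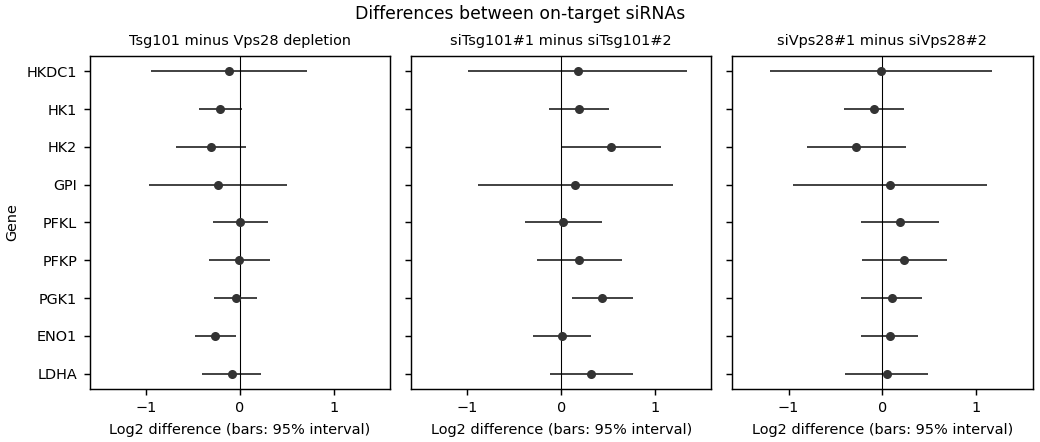
Log2 difference (horizontal axes) of each of the 9 members (vertical axis) between Tsg101 and Vps28 depletion, between the siTsg101 siRNAs and between the siVps28 siRNAs, with 95% intervals. The intervals of HKDC1 and GPI are wide, and in all 3 panels each point lies between -0.31 and 0.53. The interval of GPI takes in the spread of all 18 libraries, with the low siCtrl#2 replicate 3 among them.

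Other genes of glucose metabolism were examined from fixed lists of 78 genes, of which 56 passed the minimum. Their values were not used to choose the members and are tested, but these lists too were put together with earlier results of these data known, so that their counts are not independent evidence. When the on-target mean was set against siCtrl#1, 12 rose and 2 fell, beside 8.56% of all genes called higher and 6.54% called lower, and the median log2 fold change was 0.17 over the 56 genes. With siCtrl#2 as the reference 8 of the 56 passed (14.3%), near the 10.5% of all genes that did.

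Glucose transporters bring the sugar into the cell. Of 5 tested, 2 rose and 0 fell. SLC2A3, a high-affinity transporter, had 39.9 to 58.1 CPM in siCtrl#1, 82.1 to 114 in siCtrl#2, 143 to 177 with siTsg101#1 and 68.6 to 79.4 with siTsg101#2. It averaged 187 CPM (SD 15.3) with siVps28#1 and 159.9 CPM (SD 20.1) with siVps28#2, so that all groups lay above siCtrl#1 and siTsg101#2 lay below siCtrl#2. Its log2 fold change of the on-target mean was 1.41 (SE 0.15, adjusted p = 4.75e-07), siCtrl#2 also differed from siCtrl#1 by 0.99 (SE 0.17, adjusted p = 0.00197), and against siCtrl#2 the on-target mean was at 0.42, below the fold threshold. SLC2A6, a transporter found on lysosomes, rose by 0.93 (SE 0.18, adjusted p = 5.54e-04), passed with all 4 siRNAs, as 2.58% of all genes did in this direction, and had its 12 on-target libraries above the 6 nontargeting ones. SLC2A1, the common transporter of tumour cells, was at 0.16 (SE 0.28, adjusted p = 0.719).

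Between glucose 6-phosphate and lactate, 9 enzymes outside the members were tested, of which 1 rose and 1 fell. The aldolase ALDOC rose by 0.65 (SE 0.15, adjusted p = 0.00362) and was at 0.55, under the fold threshold, without siCtrl#1 replicate 3. BPGM, which makes 2,3-bisphosphoglycerate, changed by -0.75 (SE 0.24, adjusted p = 0.0236) and did not pass against siCtrl#2 (-0.33), nor without siCtrl#1 replicate 1 (-0.48) or replicate 2 (-0.80). GAPDH was at -0.29 (SE 0.13, adjusted p = 0.107) and ranged from 4710 CPM in a siTsg101#1 library to 8668 CPM in a siCtrl#1 library. The pyruvate kinase PKM received 330 reads in all libraries together and was at -0.49 (SE 0.32, adjusted p = 0.281), and PGAM1, with 81 reads, was not tested. Counts that low leave both steps poorly measured.

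TPI1, which interconverts the triose phosphates, was 0.23 (SE 0.15, adjusted p = 0.271) from siCtrl#1 in the mean of the 4 siRNAs, and differed between the subunits. It had 500 to 560 CPM in siCtrl#1 and 368 to 568 in siCtrl#2. It had 673 to 926 CPM with siTsg101#1, 606 to 885 with siTsg101#2, 413 to 550.1 with siVps28#1 and 435 to 537 with siVps28#2. The 6 siTsg101 libraries lay above the 6 siVps28 libraries, as the groups did for 4.97% of all genes in one direction or the other. The log2 difference was 0.68 (SE 0.13, adjusted p = 8.17e-04).

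Fructose 2,6-bisphosphate activates phosphofructokinase, and of the 4 tested enzymes that make or remove it, 2 rose. PFKFB2, a kinase that makes it, had 12.7 to 23.7 CPM in siCtrl#1 and 19.2 to 26.7 in siCtrl#2, and 37.3 to 64.3 CPM over the 4 on-target groups, above every nontargeting library. It rose by 1.38 (SE 0.19, adjusted p = 1.75e-05) and passed with all 4 siRNAs. TIGAR, a phosphatase that lowers it, rose by 0.96 (SE 0.21, adjusted p = 0.00212) and differed between the subunits by 1.04 (SE 0.17, adjusted p = 1.64e-04). It had 22.1 to 27.4 CPM with siTsg101#1 and 18.4 to 22.8 with siTsg101#2, all above the 7.10 to 17.7 with siVps28#1 and 9.42 to 12.2 with siVps28#2, beside 6.57 to 9.25 in the nontargeting libraries.

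Pyruvate dehydrogenase kinases inhibit pyruvate dehydrogenase, which turns pyruvate into acetyl-CoA inside the mitochondria. Of the 11 tested genes of pyruvate entry into mitochondria and of pyruvate dehydrogenase, PDK1 and PDK3 rose and 0 fell. PDK1 rose by 1.07 (SE 0.20, adjusted p = 4.08e-04), with 6.67 to 10.9 CPM in nontargeting and 9.84 to 27.8 in on-target libraries. PDK1 also differed by 0.60 (SE 0.16, adjusted p = 0.0127) between Tsg101 and Vps28 depletion, but was at 0.52 to 0.57, under the fold threshold, without siTsg101#1 replicate 1, siTsg101#2 replicate 2, siVps28#2 replicate 2 or siVps28#1 replicate 3. PDK3 rose by 1.36 (SE 0.46, adjusted p = 0.035) on 240 reads in all, and did not pass without siCtrl#1 replicate 1 or 3, or without siVps28#1 replicate 1 or 2 (0.97 to 1.31), nor against siCtrl#2 (0.96). None of the 3 tested monocarboxylate transporter genes passed both thresholds in edgeR, 2 had an adjusted p-value under 0.05, and their values were -0.38 to -0.31.

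The pentose phosphate pathway branches off at glucose 6-phosphate, and 2 of 6 genes examined rose and 1 fell. PGD, an enzyme of its oxidative arm, rose by 0.63 (SE 0.12, adjusted p = 3.73e-04), and so did TALDO1 of the non-oxidative arm (0.63, SE 0.16, adjusted p = 0.00514), which was at 0.45 without siCtrl#1 replicate 3 and then did not pass. RPIA, an isomerase of ribose 5-phosphate, changed by -0.65 (SE 0.15, adjusted p = 0.0025), but it was at -1.78 with siTsg101#1 and at -0.28, -0.25 and -0.29 with siTsg101#2, siVps28#1 and siVps28#2. It did not pass against siCtrl#2 (-0.31) or against both controls averaged (-0.48), nor without siCtrl#1 replicate 1 (-0.49).

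In the glycogen and hexosamine branches, 2 of 10 genes rose. GFPT2, an enzyme of hexosamine synthesis, rose by 1.00 (SE 0.21, adjusted p = 0.00143) and was at 0.23 against siCtrl#2. PGM1, which links glucose 6-phosphate with glycogen, rose by 0.83 (SE 0.21, adjusted p = 0.00529) and was at -0.08 against siCtrl#2, and it did not pass without siCtrl#1 replicate 2 (0.65). GFPT1 differed between the subunits, with 46.7 to 84.1 CPM in the siTsg101 and 27.6 to 41.6 in the siVps28 libraries and a log2 difference of 0.85 (SE 0.14, adjusted p = 1.69e-04). ARRDC4, an arrestin that limits glucose uptake, was the 1 of 5 glucose-sensing genes that rose (1.69, SE 0.47, adjusted p = 0.0111), on 286 reads in all, and it did not pass without siCtrl#1 replicate 1 (1.65) or replicate 3 (1.43). Of the 1 tested other glucose kinase and the 2 tested gluconeogenic genes, 0 passed in edgeR with or without the fold threshold.

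**Figure D5:**
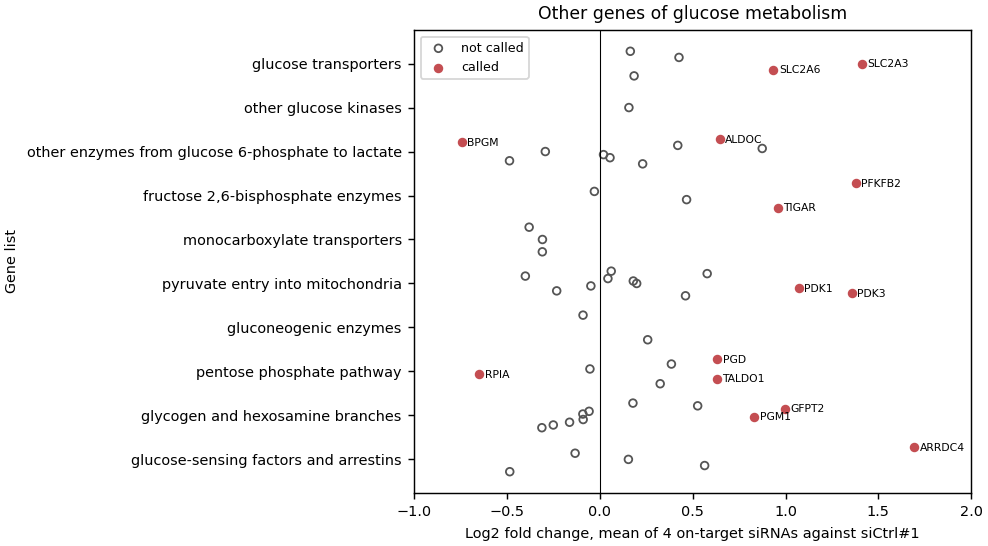
Log2 fold change relative to siCtrl#1 of the 4 on-target siRNAs averaged (horizontal axis) for the 56 tested genes of glucose metabolism outside the members, by list (vertical axis). Filled points mark the 12 genes that rose and the 2 that fell, with their names.

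HIF1A drives many glycolytic genes in low oxygen, and its targets outside glycolysis were listed beside them. Of 12 genes, 10 were tested and 2 rose, beside 8.56% of all genes. BHLHE40, a circadian repressor, rose by 1.602 (SE 0.21, adjusted p = 1.01e-05) with all 4 siRNAs. The histone demethylase KDM3A rose by 0.87 (SE 0.25, adjusted p = 0.0142), and did not pass against siCtrl#2 (0.08), nor without siCtrl#1 replicate 1 (0.72) or replicate 2 (0.87). VEGFA was at 0.50 (SE 0.15, adjusted p = 0.0188), under the fold threshold, and HIF1A itself at 0.18 (SE 0.12, adjusted p = 0.274).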

How the data were processed

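Libraries were made from total RNA of RKO cells with the Ion AmpliSeq Transcriptome panel and read on an Ion Proton. The authors used TMAP for alignment to the hg19 reference of the panel and HTSeq 0.6.0 for counting (per the labels' processing notes). The values the authors deposited are raw counts per transcript target without normalization. Reads outside a target made up 48.2 to 49.1% and were left out. Strand setting and amplicon positions are not given in the sources used here, and reads shared with paralogs, pseudogenes or overlapping genes could not be told apart.

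Of 20802 genes, 20228 were matched to a gene name. Genes with more than 100 counts in all libraries together were kept (10632), 419 noncoding ones were left out as in the study's methods, and 10213 were tested. The scaling was TMM, and the fit used edgeR 4.0.16 (R 4.3.3) in one model of 6 groups, with the quasi-likelihood test and Benjamini-Hochberg adjustment over all tested genes. A call needed 1.5-fold and an adjusted p-value under 0.05. The main reference was siCtrl#1. Alternatives were DESeq2 1.42.0, RLE size factors, other filters, siCtrl#2 or both nontargeting siRNAs as reference, adjusted p alone, a replicate block and leaving out each library. Leaving out siCtrl#2 replicate 3 and siVps28#2 replicate 3 together was added after seeing the data. The fit was tested on data simulated with the same dispersion for all genes and without batches or lost transcripts. That test does not cover a gene near 0 in the controls, such as HKDC1.

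The labels name the replicate number as the batch. Over 45 pairs of same-numbered libraries of different groups, deviations from the group means correlated at 0.145 on average (-0.148 to 0.389), with 30 pairs over 0.1. No pair of libraries was identical. Named were all members, TSG101 and VPS28, up to 12 genes per list called in the on-target mean or between the subunits by smallest p, GAPDH, TPI1, PGAM1 and PKM, and the 5 genes nearest to HKDC1. A listed gene is not reported here and was left out of the list counts. The members and lists were chosen with earlier results of these data known. Positions are from the GRCh37 annotation, and promoters from RefSeq in GRCh38.p14, with a window for all 10 named genes.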

Additional observations from a re-analysis of the deposited data

Results flagged for a closer look

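A test of the difference between Tsg101 and Vps28 depletion (edgeR's quasi-likelihood test, Benjamini-Hochberg adjustment over all 10213 genes) marked 6 of the 56 other genes of glucose metabolism, where 6.23% of all genes passed. SLC2A3 was lower with Tsg101 depletion, with a log2 difference of -0.65 (adjusted p = 5.61e-04), and RPIA was lower as well, at -0.76 (adjusted p = 6.91e-04). TPI1 was higher with Tsg101 depletion by 0.68 (adjusted p = 8.17e-04) and TIGAR by 1.04 (adjusted p = 1.64e-04). PDK1 was higher by 0.60 (adjusted p = 0.0127), a call lost when any of 4 libraries was left out (0.52 to 0.57), and GFPT1 by 0.85 (adjusted p = 1.69e-04). For SLC2A3 and RPIA the siTsg101 siRNAs also differed from each other, by 1.14 (adjusted p = 1.45e-04) and -1.498 (adjusted p = 6.84e-05).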

How the results depend on the processing

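Among the members, 1 was called in the on-target mean against siCtrl#1. The count was 0 with at least 10 counts required in every library, where HKDC1 was not tested, 2 against siCtrl#2 (HKDC1 and LDHA) and 3 by adjusted p alone. Between the nontargeting siRNAs the count of 0 became 1 with DESeq2, 2 without a filter on low counts, 1 with the replicate block and 0 to 1 when each library was left out. In the comparisons in which members were tested, the replicate block changed the call of LDHA there and of no other member. Of the other genes of glucose metabolism, 14 were called, and 8 against siCtrl#2. Of the HIF1A list 2 were called, 1 against the mean of both nontargeting siRNAs and 1 to 3 when each library was left out, and without siCtrl#1 replicate 1 or replicate 2 it was 1. The difference of HKDC1 between the subunits (-0.12) ranged from -0.69 to 0.24 when each library was left out. It turned to 0.12 without siTsg101#1 replicate 2, 0.01 without siTsg101#2 replicate 2, 0.15 without siVps28#1 replicate 3, 0.24 without siVps28#2 replicate 3 and 0.25 without siCtrl#2 replicate 3 and siVps28#2 replicate 3 together, in each case within its error. PGM1 turned to -0.081 against siCtrl#2. The cause of these shifts was not tested. HKDC1 rests on 2 control reads, so that depth limits its ratio.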

Other observations

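Some genes of glucose metabolism were low with siTsg101#1 alone among the on-target siRNAs, and apart from RPIA they were singled out after their values were seen. Between siTsg101#1 and siTsg101#2, 4 of the 56 genes were called lower and 1 higher, where 6.98% of all genes were called in either direction. SLC16A1, which exports lactate, had 84.7 to 99.0 CPM with siTsg101#1 and 178 to 207 with siTsg101#2, a log2 difference of -1.01 (adjusted p = 1.10e-04). TXNIP, which restrains glucose uptake, had 1.23 to 5.77 CPM and 5.48 to 19.5 CPM (-1.61, adjusted p = 0.0191), and PGM2, a phosphopentomutase, had 20.5 to 23.9 and 31.1 to 46.7 CPM (-0.78, adjusted p = 0.0139). RPIA had 15.1 to 23.2 and 55.7 to 64.5 CPM. CA9, a carbonic anhydrase of the HIF1A list, differed the other way, with 14 to 42 reads per library with siTsg101#1 and 0 to 4 with siTsg101#2 (3.81, SE 0.63, adjusted p = 4.20e-04).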
